A study of Homo sapiens with 9 samples.

Results

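In SUIT2 cells exposed to interferon beta, 80 of 16964 tested genes stood on one side of the control at 6 h and on the other side at 24 h. They were chosen from the measured levels, in CPM, read counts divided by library size and scaled with TMM factors, which set the libraries to a common level through the bulk of their genes. A member had a mean of 2 CPM or more in its highest group, and its 2 ratios to the control mean were at least 1.5 at one time and at most 0.67 (a log2 ratio of -0.584 or less) at the other. Of these genes 15 were higher at 6 h and lower at 24 h, and 65 were lower at 6 h and higher at 24 h. They were 0.109% and 0.472% of the 13773 tested genes that reached 2 CPM. The choice left out CDKN1A, INSIG1 and NT5E. INSIG1 met both ratios, with 0.661 at 6 h and 8.59 at 24 h, while CDKN1A (1.44 at 6 h) and NT5E (1.48 at 6 h) did not.

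SUIT2 is an established human pancreatic cancer cell line, and interferon beta is a type I interferon. Total RNA was sequenced from 9 samples of it in 3 groups of 3, namely control, 100 U/mL human interferon beta for 6 h and 100 U/mL for 24 h. Cells of the treated groups received the interferon in fresh medium 24 h after seeding. The labels give no time for the control group and carry the same text on fresh medium with interferon for it, so the effect of interferon, of the medium change and of time in culture cannot be told apart in either ratio. Whether the replicates were separate cultures is not given in the labels, and both ratios of a gene share the same 3 control libraries.

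Type I interferon binds a receptor that activates JAK kinases and the STAT transcription factors, which switch on antiviral genes within hours. Later waves of expression can depend on proteins made in the first hours. The HSP70 chaperones, which lead the first group, hold and refold unfolded proteins with the help of J-domain and BAG cochaperones, and heat shock factors switch on their inducible genes through repeated GAA units in the promoter.

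The libraries held 15101734 to 40384407 estimated counts, so that 1 CPM stood for 15.3 to 43.0 counts. All 14 ductal epithelial markers were tested. Their summed level was 5325 to 5399 CPM in control, 5929 to 6265 CPM at 6 h and 5994 to 6100 CPM at 24 h. Most of this sum came from KRT8, KRT18 and KRT19, and single markers differed in direction. By edgeR's quasi-likelihood test 5 of the 14 were higher and 4 lower at 6 h, beside 17.5% and 15.4% of all tested genes. At 24 h 11 were higher and 2 lower, beside 24.7% and 25.3%. Of 14 leukocyte markers 3 were tested and 5, with PTPRC, CD3D and CD3E among them, were at 0 in all libraries. Their sum of 258 to 261, 372 to 389 and 405 to 426 CPM came almost wholly from CD68 and LYZ. Of 17 fibroblast, endothelial and acinar markers 3 were tested and 4 were at 0 in all libraries, with a sum between 2.15 and 3.59 CPM. Their part in the results was not tested, and in bulk RNA fewer cells of a type and less RNA per cell cannot be told apart. None of the 42 tested interferon-stimulated genes was a member, and 41 of them were higher at 6 h and 39 at 24 h by edgeR's quasi-likelihood test (adjusted p under 0.05), beside 17.5% and 24.7% of all tested genes.

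Most genes past a limit at 6 h were not past the opposite limit at 24 h. Of 864 genes at 2 CPM or more with a 6 h ratio of at least 1.5, 428 were still at 1.5 or more at 24 h, 421 lay between the limits and 15 (1.74%) were at or under the lower limit. Of 391 genes at or under it at 6 h, 86 were still low, 239 lay between and 66 (16.9%, INSIG1 included) were at 1.5 or more. The control libraries enter both ratios, so the shares are given without a test.

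**Figure D1:**
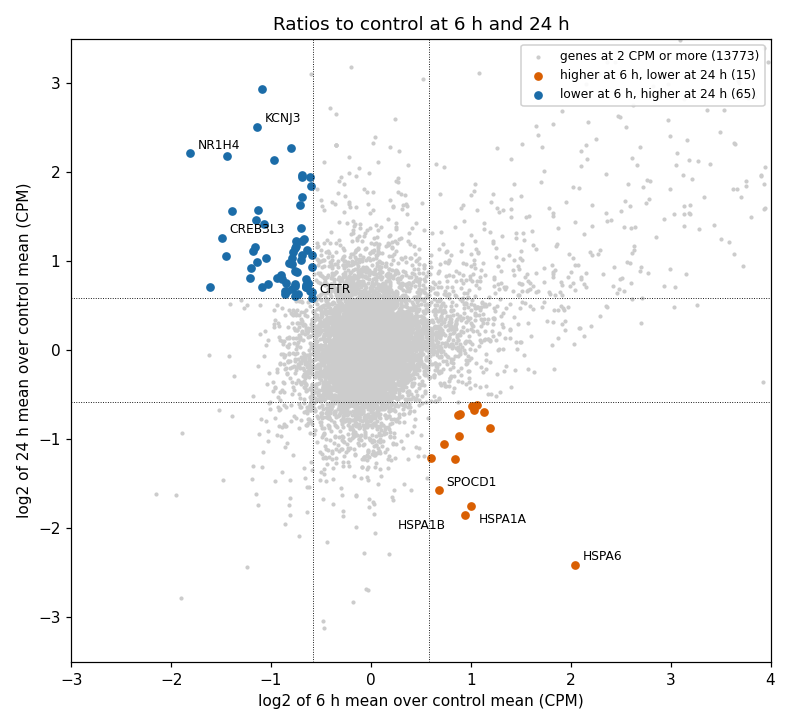
Log2 ratio of group means to control at 6 h (horizontal axis) and at 24 h (vertical axis), in TMM-scaled CPM, for tested genes at 2 CPM or more (grey points), with the 15 genes higher then lower in orange and the 65 genes lower then higher in blue. Dotted lines mark the upper limit of 1.5 and the lower limit, and 97 genes lie outside the axes. NR1H4 and KCNJ3 lie toward the far end of the blue points and HSPA6, HSPA1A and HSPA1B at the far end of the orange ones.

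The stress-inducible HSP70 genes stood at the far end of the 15 genes that were higher at 6 h and lower at 24 h. Their promoters are shown because the 3 genes moved together and because heat shock elements are the best known feature of such promoters. Each line gives the 250 bases before the gene's start, 5′ to 3′ on the plus strand, from RefSeq on GRCh38.p14. Capitals mark 2 facing GAA units 2 bases apart (GAANNTTC or TTCNNGAA) and the TATA box (TATAAA).
HSPA1A (chr6:31815293-31815542): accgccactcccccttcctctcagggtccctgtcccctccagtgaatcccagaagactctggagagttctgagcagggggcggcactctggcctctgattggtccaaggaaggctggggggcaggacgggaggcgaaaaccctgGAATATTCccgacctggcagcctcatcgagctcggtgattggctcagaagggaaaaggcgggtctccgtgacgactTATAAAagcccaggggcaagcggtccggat
HSPA1B (chr6:31827488-31827737): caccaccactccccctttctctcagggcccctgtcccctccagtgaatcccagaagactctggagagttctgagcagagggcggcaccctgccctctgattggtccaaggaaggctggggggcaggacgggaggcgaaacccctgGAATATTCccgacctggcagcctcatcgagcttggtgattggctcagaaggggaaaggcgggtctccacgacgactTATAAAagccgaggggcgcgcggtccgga
HSPA6 (chr1:161524290-161524539): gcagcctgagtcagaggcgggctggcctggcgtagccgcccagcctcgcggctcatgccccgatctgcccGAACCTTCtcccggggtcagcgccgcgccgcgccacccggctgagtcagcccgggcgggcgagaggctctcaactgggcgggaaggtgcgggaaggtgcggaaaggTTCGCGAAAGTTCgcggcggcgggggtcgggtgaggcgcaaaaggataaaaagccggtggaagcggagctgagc
HSPA1A and HSPA1B each held 1 pair of units, from base -106 to -99 and from -105 to -98, and a TATA box from -30 and from -29. In HSPA6 the matches lay from -180 to -173, from -74 to -67 and from -69 to -62, and the last 2 overlap. The stretch before the start was identical at 235 of 251 aligned positions (93.6%) between HSPA1A and HSPA1B and at 120 of 282 (42.6%) between HSPA1A and HSPA6.

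Values below without a group name are in the order control, 6 h and 24 h, and ± marks the SD over the 3 libraries of a group (n = 3). HSPA1A encodes stress-inducible HSP70 (chromosome 6, 31815543 to 31817947, plus strand, as in the deposited table on hg38). Its level was 650.3, 695 and 726 CPM in the control libraries, 1365, 1401 and 1384 CPM at 6 h and 202, 207 and 206 CPM at 24 h. The 3 groups did not overlap, and the 24 h libraries lay closer to each other than the control libraries did. The ratio of means was 2 at 6 h and 0.297 at 24 h. Its neighbour HSPA1B encodes the same chaperone (chromosome 6, 31827738 to 31830255, plus strand). It stood at 421, 409 and 415 CPM in control, 800.3, 809 and 774 CPM at 6 h and 116, 112 and 117 CPM at 24 h, again without overlap, with ratios of 1.91 and 0.277. The longest reading frames of the 2 genes agree at 1922 of 1926 bases, so the counting may have split reads between them. Summed, the pair had ratios of 1.97 and 0.289. HSPA1B also overlaps AL671762.1 on the same strand, with ratios of 1.21 and 0.573.

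HSPA6, an inducible HSP70 that is nearly silent without stress (chromosome 1, 161524540 to 161526895, plus strand), had a low level throughout. It was 0.42, 1.16 and 0.848 CPM in control, 3.57, 3.42 and 2.99 CPM at 6 h and 0.163, 0.185 and 0.109 CPM at 24 h, from 43, 232 and 16 counts summed over each group. All 6 h libraries lay above the controls and all 24 h libraries below them. Its ratios of 4.12 and 0.188 were the widest of the 15 genes in both directions. The coding sequences of HSPA6 and HSPA1A agree at 80.6% of positions.

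BAG1, a cochaperone that helps HSP70 release its nucleotide and that binds BCL2 (chromosome 9, 33247820 to 33264721, minus strand), followed the same order. It stood at 29.3, 28.7 and 28 CPM in control, 52.1, 54.6 and 53 CPM at 6 h and 18.1, 16.1 and 18.2 CPM at 24 h, with ratios of 1.86 and 0.609.

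Other genes of the chaperone families did not meet the rule. By edgeR's quasi-likelihood test, 5 of 13 tested HSPA genes were higher at 6 h, 3 were lower and 5 did not pass, against 3, 5 and 5 at 24 h. Over all tested genes 17.5% were called higher and 15.4% lower at 6 h, and 24.7% higher and 25.3% lower at 24 h. The 3 lower at 6 h were HSPA12A, HSPA2, a testis-enriched HSP70, and HSPA14, a ribosome-associated one. HSPA2 had -0.32 (SE 0.088) and HSPA14 -0.11 (SE 0.035), and neither passed with DESeq2, without the filter on low counts or without control library 2, which left 1 gene lower. HSPA14 also did not pass without control library 3 or 6 h library 2. At 6 h 7 HSPA genes were called lower with library sizes alone. With all libraries and TMM factors the counts include the 3 members, and the median log2 fold change was 0.05 at 6 h and 0.01 at 24 h, beside -0.01 and 0.00 over all genes tested. Of 6 BAG genes, BAG1 included, 3 were higher and 0 lower at 6 h, and 0 higher and 4 lower at 24 h. One of the 3, BAG6, a chaperone of newly made membrane proteins, had 0.10 (SE 0.030) at 6 h and -0.21 (SE 0.030) at 24 h, and its 6 h value turned to -0.04 with library sizes alone.

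HSPA8, the constitutive HSP70 of the cytosol, went from 3742, 3792 and 3761 CPM in control to 4702, 4945 and 5006 CPM at 6 h and 2435, 2534 and 2496 CPM at 24 h. Its log2 fold changes were 0.38 (SE 0.023) and -0.60 (SE 0.023), with adjusted p of 2.84e-09 and 8.6e-12 by edgeR's quasi-likelihood test, and its 6 h ratio of 1.3 was below the limit. DNAJB1, a J-domain cochaperone of HSP70, rose at 6 h with 0.26 (SE 0.029) and fell at 24 h with -0.77 (SE 0.029). Its level was 247 ± 4.47, 296 ± 3.33 and 144 ± 2.54 CPM. BAG3, a cochaperone of stress-induced autophagy, had 0.38 (SE 0.040) and -0.70 (SE 0.041), from 137 ± 6.34, 178 ± 7.99 and 84.5 ± 2.09 CPM. HSPH1, a nucleotide exchange factor for HSP70, had 0.22 (SE 0.029) and -0.25 (SE 0.029), from 420.5 ± 12, 489 ± 13.5 and 355 ± 1.57 CPM. All 4 genes passed the test at both times, higher at 6 h and lower at 24 h, with 6 h ratios under 1.5.

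HSPA5, the HSP70 of the endoplasmic reticulum, was higher at both times, with 0.41 (SE 0.031) and 0.34 (SE 0.031). HSPA1L, at 3.99, 4.66 and 1.92 CPM, did not pass at 6 h with 0.22 (SE 0.159). It was lower at 24 h with -1.05 (SE 0.168). HSPA9, the mitochondrial HSP70, and HSPA4 did not pass at either time, with log2 fold changes of 0.05 and 0.04 for HSPA9 and 0.04 and 0.03 for HSPA4. HSPA12A, a distant family member, went the other way, with -0.72 (SE 0.034) and 0.10 (SE 0.033), and the second value no longer passed without control library 1 or 2 or without 24 h library 2 or 3. The level of HSF1, the main heat shock factor, was 161 ± 0.523, 168 ± 5.88 and 154 ± 1.04 CPM and did not pass at either time against control, with 0.06 (SE 0.032) and -0.06 (SE 0.031). Without 6 h library 3 both values of HSF1 were called (0.09 and -0.06). With library sizes alone as the scaling, HSPA4 and HSPA9 were called lower at 6 h (-0.10 and -0.09) and higher at 24 h (0.11 and 0.12), and HSPA13 (-0.18), HSPA4L (-0.20) and BAG5 (-0.17) were also called lower at 6 h.

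On the list of 18 tested metallothionein and heat shock genes, 15 were higher at 6 h and 0 lower, beside 17.5% and 15.4% of all tested genes, with a median log2 fold change of 0.39. At 24 h 8 were higher and 8 lower, beside 24.7% and 25.3% of all tested genes, with a median of 0.04. The 8 genes called higher and then lower, beside 3.9% of all tested genes, include the 2 listed members, HSPA1A and HSPA1B. HSP90AA1, the inducible cytosolic HSP90, had 0.21 (SE 0.020) and -0.17 (SE 0.020), while HSPD1, the mitochondrial chaperonin, was higher at both times with 0.15 (SE 0.025) and 0.08 (SE 0.025). The 6 h value of HSPD1 did not pass with library sizes alone (0.01), and its 24 h value did not pass without control library 3 (0.07) or without 24 h library 2 or 3 (both 0.07).

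**Figure D2:**
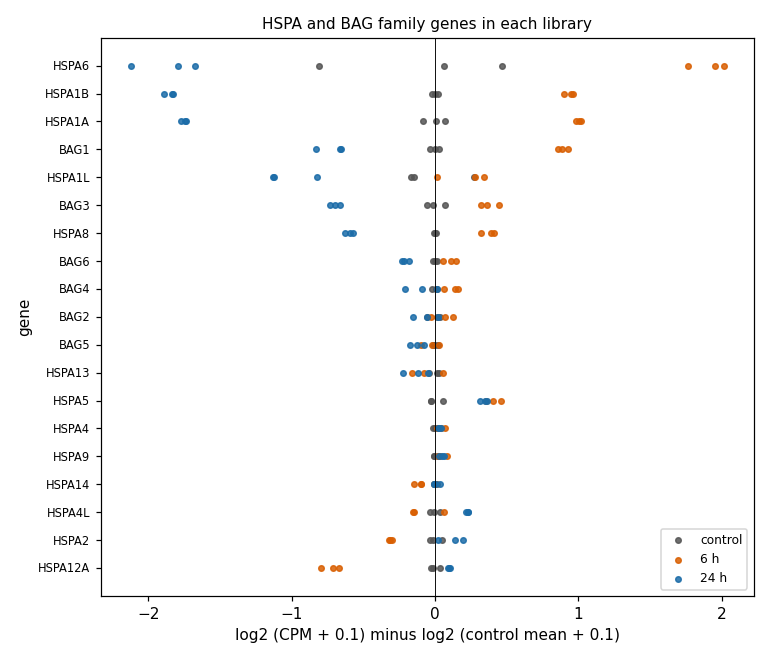
Each library of the tested HSPA and BAG genes, as log2 of CPM plus 0.1 minus log2 of the control mean plus 0.1, with control in grey, 6 h in orange and 24 h in blue. HSPA6, HSPA1B, HSPA1A and BAG1 have the 6 h points far right and the 24 h points far left of 0, HSPA8 and BAG3 show the same order over a shorter span, and HSPA5 has both treated groups to the right.

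The other 11 genes of the first direction were mostly signalling, membrane and cytoskeletal genes. RPS6KA5, the kinase MSK1 that phosphorylates CREB and histone H3, stood at 11.2, 11 and 11.8 CPM in control, 18.6, 17.9 and 19.7 CPM at 6 h and 5.48, 5.59 and 5.38 CPM at 24 h. PI4K2B, a phosphatidylinositol 4-kinase, was at 60.7, 62.8 and 61.5 CPM in control, 127, 127 and 133 CPM at 6 h and 41, 41 and 39.1 CPM at 24 h. PI4K2B was well above control at 6 h (ratio 2.09) and lay just inside the lower limit at 24 h (ratio 0.655).

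CLEC2B, a C-type lectin that is a ligand of the natural killer cell receptor NKp80, was at 43.3, 48.3 and 42.3 CPM in control, 78.2, 82.3 and 86.8 CPM at 6 h and 23.8, 21.6 and 23 CPM at 24 h. RGS20, which speeds up GTP hydrolysis by G protein alpha subunits, had means of 3.99 ± 0.169, 7.29 ± 0.688 and 2.41 ± 0.124 CPM. Both genes had 6 h ratios close to the group's median, 1.85 for CLEC2B and 1.83 for RGS20.

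SPOCD1, a protein of RNA-directed DNA methylation in germ cells, had the strongest 24 h decrease after the HSP70 genes, with a ratio of 0.337. It measured 17.7, 18.5 and 22.4 CPM in control, 31.3, 32.3 and 30.1 CPM at 6 h and 6.67, 6.45 and 6.6 CPM at 24 h. TUBB3, the class III beta-tubulin, stood at 27.4, 26.8 and 28.9 CPM in control, 39.5, 46.9 and 39.9 CPM at 6 h and 11.3, 11.1 and 13.5 CPM at 24 h, with 6 h library 2 above the other two. Its 6 h ratio of 1.52 was the lowest of the 15. Without 6 h library 2 TUBB3 no longer met the rule.

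PLEKHN1, a pleckstrin homology domain protein, had 9.96 ± 0.634, 22.7 ± 0.565 and 5.44 ± 0.477 CPM. ANKRD33B, an ankyrin repeat protein, had 6.55 ± 0.898, 13.4 ± 0.633 and 4.12 ± 0.413 CPM. THSD1, a membrane protein with a thrombospondin repeat, had 6.46 ± 0.757, 13 ± 0.511 and 4.18 ± 0.686 CPM. THSD1 no longer met the rule without control library 3 or without 24 h library 1 or 2. RNF24, a RING finger membrane protein, was at 1.97 ± 0.163, 4.32 ± 0.457 and 1.22 ± 0.0961 CPM. In these 4 genes, as in the other 11, no library of a group crossed into another group's range.

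The 15 genes had a median ratio of 1.91 at 6 h (range 1.52 to 4.12) and of 0.511 at 24 h (range 0.188 to 0.655). All 15 passed edgeR's test and did not overlap at both times. Over all tested genes 17.5% were called higher at 6 h, 25.3% were called lower at 24 h, 3.9% were called both and 30.6% were called lower at 24 h than at 6 h, as all 15 were, and 5.64% were separated from control in these directions at both times. The ratios chose the members, so nothing is read from their calls. Control, 6 h and 24 h libraries of one gene had a median coefficient of variation of 6.36%, 4.73% and 6.82%. All 15 are protein-coding, and 3 of them, HSPA6 and RNF24 included, stayed under 5 CPM in their highest group. HSPA1A and HSPA1B lie side by side on chromosome 6, and the others lie on 10 chromosomes.

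Just outside the limits lay STC2, with ratios of 1.48 and 0.37, and COL17A1, with 1.46 and a 24 h ratio at the lower limit. CLIC5, with 1.82 and 0.6675, and DYNC1H1, with 1.56 and 0.673, missed the 24 h limit. TUBB3 and SPOCD1 were the nearest members inside the 6 h limit, and PI4K2B and THSD1 inside the 24 h limit. On level, HSPA6 (3.33 CPM) lay inside and URGCP-MRPS24 (1.97 CPM) and AP000695.2 (1.84 CPM) nearest outside.

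**Figure D3:**
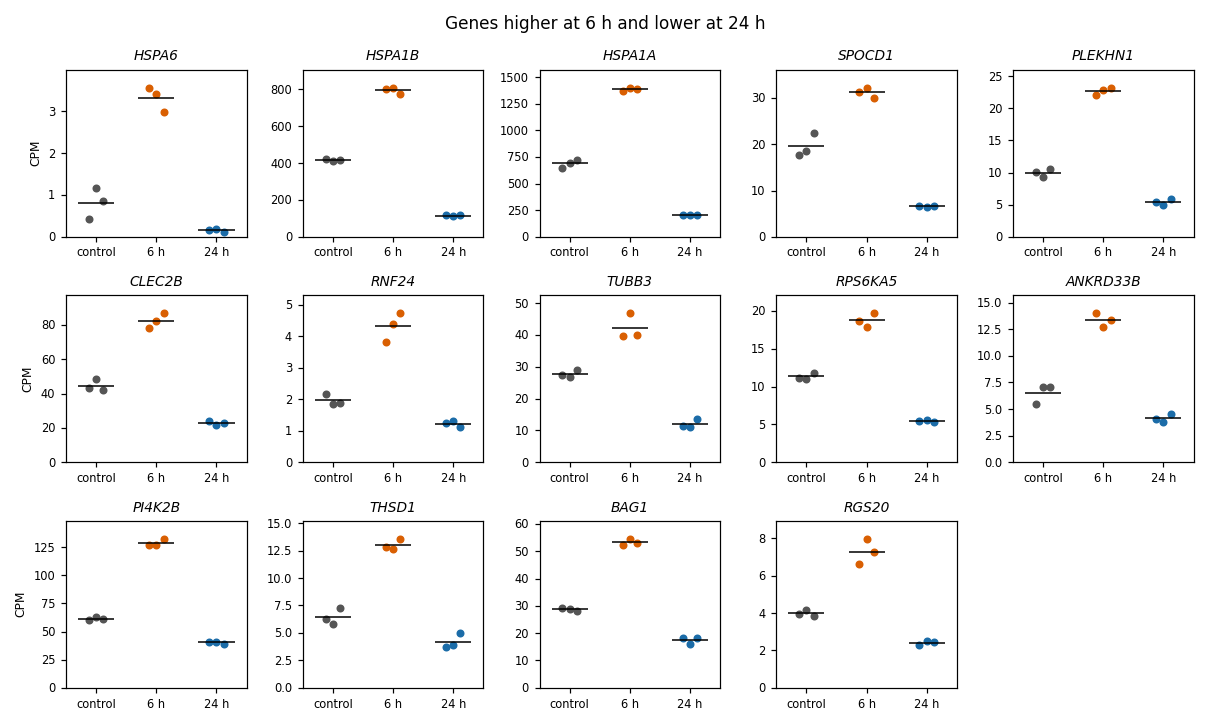
CPM (TMM-scaled) in each library for 14 of the genes higher at 6 h and lower at 24 h, with 1 point per library, a bar at each group mean and linear axes from 0. In each panel the 3 points at 6 h lie above all control points and the 3 points at 24 h below them.

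The 65 genes that were lower at 6 h and higher at 24 h were of mixed function. Their median ratio was 0.584 at 6 h (range 0.286 to 0.666) and 2.02 at 24 h. Of the 65, 56 are protein-coding, 6 are long noncoding RNAs and 3 are pseudogenes. They were expressed at low levels, with 25 under 2 CPM in control and 28 under 5 CPM in their highest group. Their replicates had a median coefficient of variation of 13.2% in control, 14.6% at 6 h and 6.40% at 24 h.

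Of the gene lists, that of sterol and fatty acid synthesis held 36 tested genes. At 6 h edgeR called 14 lower and 3 higher, beside 15.4% and 17.5% of all tested genes, while 19 did not pass. The median was -0.11 on the log2 scale. Scaling by library size alone gave 25 lower at 6 h. At 24 h 27 were higher and 2 lower, beside 24.7% and 25.3% of all tested genes, and 7 did not pass. The 24 h median was 0.48. Of the 36, 11 were called lower and then higher, against 3.44% of all tested genes, and both counts include members. FASN, the fatty acid synthase, had -0.15 (SE 0.032) and 0.11 (SE 0.032). SCD, the stearoyl-CoA desaturase, did not pass at 6 h with 0.06 (SE 0.024) and had 0.95 (SE 0.024) at 24 h. With library sizes alone SCD was called lower at 6 h, with -0.08, and the 24 h value of FASN did not pass without control library 1 (0.09).

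The 11 transcription regulators among the 65 included nuclear receptors and factors of liver and gut. NR1H4, the bile acid receptor FXR, had the lowest 6 h ratio of the 65 (0.286). It stood at 0.959, 0.806 and 1.24 CPM in control, 0.0649, 0.416 and 0.378 CPM at 6 h and 4.83, 4.89 and 4.21 CPM at 24 h, from 51, 23 and 495 counts. CREB3L3, a membrane-bound factor of liver and gut that controls lipid and acute phase genes, had 7.55, 7.7 and 8.54 CPM in control, 2.79, 2.59 and 3.08 CPM at 6 h and 20.3, 17.5 and 19.4 CPM at 24 h. Its groups lay far apart, with ratios of 0.355 and 2.4. The retinoic acid receptor gene RARB was at 1.17 ± 0.243, 0.528 ± 0.0684 and 3.25 ± 0.553 CPM. HOXB13, a homeobox factor, was at 6.37 ± 0.417, 2.88 ± 0.263 and 12.6 ± 0.855 CPM.

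NR4A1, an orphan nuclear receptor and immediate early gene, was at 1.08, 1.01 and 0.717 CPM in control, 0.584, 0.601 and 0.581 CPM at 6 h and 2.79, 1.85 and 2.04 CPM at 24 h. Its groups did not overlap, but the 6 h difference did not pass edgeR's test. Of the 25 tested genes of the immediate early list, 8 were higher and 9 lower at 6 h, beside 17.5% and 15.4% of all tested genes, with a median log2 fold change of -0.04. The count lower at 6 h was 5 with DESeq2 and 14 with library sizes alone. At 24 h 5 were higher and 13 lower, beside 24.7% and 25.3%, with a median of -0.22. MYC went opposite to NR4A1, with 0.60 (SE 0.028) and -0.56 (SE 0.029), and so did KLF6, with 0.41 (SE 0.038) and -0.40 (SE 0.039). FOSL1 did not pass at 6 h, with -0.02 (SE 0.027), and had -1.76 (SE 0.028) at 24 h. It was called lower at 6 h (-0.16) with library sizes alone.

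E2F2, an activator of S phase genes, was at 9.23, 8.16 and 8.48 CPM in control, 5.39, 4.39 and 4.91 CPM at 6 h and 16.7, 17.4 and 17.2 CPM at 24 h, without overlap. Of 34 tested cell cycle genes, E2F2 included, 4 were higher, 11 lower and 19 did not pass at 6 h. At 24 h 15 were higher, 17 lower and 2 did not pass. Over all tested genes 17.5% were higher and 15.4% lower at 6 h, and 24.7% higher and 25.3% lower at 24 h. Scaling by library size alone gave 2 higher and 24 lower of the 34 at 6 h. MKI67 and TOP2A, which mark dividing cells, had 24 h log2 fold changes of -0.47 (SE 0.057) and -0.78 (SE 0.025). At 6 h they had 0.02 (SE 0.057), which did not pass, and -0.11 (SE 0.025). The cyclin gene CCND1 went the other way from E2F2, with 0.19 (SE 0.028) and -0.83 (SE 0.029), and its 6 h value did not pass with library sizes alone (0.05).

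CBX7, a Polycomb subunit, had 7.15 ± 0.486, 3.35 ± 0.321 and 11.7 ± 0.589 CPM. FOXN3, a forkhead repressor, had 14.4 ± 1.95, 8.64 ± 0.0126 and 22.3 ± 0.658 CPM, with 6 h libraries that hardly differed. GRHL2, a factor of epithelial identity, was near the level limit with 1.45 ± 0.254, 0.803 ± 0.19 and 2.44 ± 0.286 CPM. The zinc finger genes completed the 11, ZNF483 with 3.3 ± 0.417, 1.95 ± 0.26 and 6.12 ± 0.654 CPM. ZNF362 had 6.73 ± 0.767, 4.28 ± 0.449 and 11.1 ± 0.42 CPM. Across the 11 regulators the ratios ran from 0.286 to 0.636 at 6 h and from 1.55 to 4.64 at 24 h.

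Transporters and channels made up 6 members. SLC40A1, the iron exporter ferroportin (chromosome 2, 189560590 to 189583759, minus strand), stood at 2.4, 2.42 and 1.89 CPM in control, 1.04, 0.508 and 1.02 CPM at 6 h and 6.83, 6.48 and 6.52 CPM at 24 h. SLC38A4, an amino acid transporter, had 6.47, 7.15 and 6.19 CPM in control, 4.41, 4.76 and 3.89 CPM at 6 h and 24.1, 24.2 and 23.2 CPM at 24 h. SLC22A23, an orphan of the organic ion transporter family, had 4.68, 3.73 and 4.76 CPM in control, 2.14, 1.66 and 2.09 CPM at 6 h and 9.55, 10.5 and 9.42 CPM at 24 h. None of the 3 had overlapping groups, and SLC38A4 lay close to the 6 h limit with 0.659.

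CFTR, the chloride channel of duct epithelium, had the highest CPM of the 65, a scale that does not account for gene length, and the smallest 24 h ratio. It was at 80.2, 81.5 and 74.3 CPM in control, 53.7, 49.2 and 53.9 CPM at 6 h and 121, 119 and 115 CPM at 24 h, with ratios of 0.664 and 1.504. Its replicates lay close together while both ratios sat at the limits, and it left the set when control libraries 1, 2 or 3, 6 h library 2 or 24 h library 1 were left out. SLC3A1, the heavy chain of the cystine and dibasic amino acid transporter, had 4.16 ± 0.279, 2.56 ± 0.217 and 8.4 ± 0.328 CPM. It overlaps AC013717.1 on the same strand, which had means of 3.12, 2.90 and 8.35 CPM and ratios of 0.929 and 2.68. Whether reads shared by the pair entered the values of SLC3A1 was not tested. KCNJ3, a G protein-gated potassium channel, had 0.36, 0.604 and 0.326 CPM in control, 0, 0.323 and 0.261 CPM at 6 h and 2.35, 3.19 and 1.82 CPM at 24 h from 23, 16 and 254 counts, so its 6 h ratio of 0.453 rested on few reads.

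Receptor and signalling genes made up 12 members. RAB26, a small GTPase of secretory granules, was at 1.92, 0.906 and 0.913 CPM in control, 0.844, 0.508 and 0.552 CPM at 6 h and 5.02, 5.78 and 5.65 CPM at 24 h. Control library 1 lay well above the other two, which were close to the highest 6 h library, and without it RAB26 left the set. ADRA1D, an alpha-1 adrenergic receptor, had 2.34, 3.12 and 3 CPM in control, 1.49, 2.03 and 1.48 CPM at 6 h and 4.35, 3.89 and 4.7 CPM at 24 h. Its groups did not overlap, and its ratios were 0.592 and 1.53.

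TLR1, a receptor for bacterial lipopeptides, had 2.15 ± 0.465, 1.38 ± 0.273 and 3.75 ± 0.317 CPM. It overlaps TLR6 on the same strand, which had ratios of 0.699 and 1.21. GPER1, a G protein-coupled estrogen receptor, was at 2.62 ± 0.354, 1.68 ± 0.132 and 5.75 ± 0.0409 CPM, with very even libraries at 24 h.

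A pair of members act on cyclic GMP. GUCY1B1, a subunit of soluble guanylate cyclase, was at 2.01 ± 0.272, 1.17 ± 0.197 and 4.33 ± 0.279 CPM. PDZD3, a scaffold that binds guanylate cyclase C, was at 6.37 ± 0.439, 3.77 ± 0.319 and 14.1 ± 0.607 CPM. Other members act on growth signals. SHISA2, which retains Wnt and FGF receptors in the endoplasmic reticulum, had 40.3 ± 0.979, 22.6 ± 0.3 and 64 ± 3.54 CPM. CXXC4, an inhibitor of Wnt signalling, had 0.753 ± 0.219, 0.344 ± 0.0392 and 2.24 ± 0.41 CPM from 40, 24 and 244 counts.

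PAK6, a p21-activated kinase, was at 4.85 ± 0.371, 2.81 ± 0.382 and 7.81 ± 0.416 CPM. It overlaps BUB1B on the same strand, which had ratios of 0.957 and 0.751. MOB3B, of the MOB family of kinase coactivators, had 6.98 ± 1.23, 4.15 ± 0.586 and 15.8 ± 0.75 CPM. IRAK1BP1, which binds the interleukin receptor kinase IRAK1, had 1.26 ± 0.167, 0.676 ± 0.145 and 2.27 ± 0.0405 CPM. APBA1, a neuronal adaptor, had 0.503 ± 0.235, 0.185 ± 0.0851 and 2.28 ± 0.361 CPM and rested on 25, 13 and 238 counts. Its 6 h library 1 lay just above control library 2. Over the 12 genes of this role the ratios ran from 0.368 to 0.640 at 6 h and from 1.53 to 4.54 at 24 h.

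Ubiquitin ligase components numbered 5. KLHL24, a substrate adaptor of cullin 3, stood at 1.56, 2.37 and 1.83 CPM in control, 0.649, 0.878 and 1.02 CPM at 6 h and 4.55, 4.04 and 3.91 CPM at 24 h. It is on the list of glucose-sensed and FOXO targets, where 6 h gave 11 of 21 tested genes lower, 5 higher and 5 that did not pass. The median log2 fold change was -0.34. At 24 h 12 were higher, 2 lower and 7 did not pass, with a median of 0.30, and 5 genes, KLHL24 included, were called lower and then higher. Over all tested genes 15.4% were lower at 6 h, 24.7% higher at 24 h and 3.44% both. TXNIP and ARRDC3, arrestin family genes on this list, were higher at both times. TXNIP had 0.27 (SE 0.038) and 0.41 (SE 0.037), and ARRDC3 had 1.04 (SE 0.055) and 0.40 (SE 0.056). TRIB2, also on the list, likewise had 0.26 (SE 0.050) and 0.36 (SE 0.048). The 6 h value of TRIB2 did not pass with library sizes alone (0.12).

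MARCHF9, a membrane ubiquitin ligase, had 29.4, 28.1 and 28.9 CPM in control, 18.2, 22.3 and 16.9 CPM at 6 h and 46.3, 46.3 and 43.9 CPM at 24 h, with a 6 h ratio of 0.664. It left the set without control library 1 or 3 or without 6 h library 1 or 3. It overlaps CDK4 on the opposite strand, which had ratios of 0.855 and 0.852. MARCHF3, of the same family, had 4.03 ± 0.404, 2.57 ± 0.592 and 6.67 ± 0.386 CPM. The F-box proteins recruit substrates to the SCF ligase. FBXL20 had 5.44 ± 0.587, 3.15 ± 0.971 and 11.2 ± 0.321 CPM. FBXO32, the muscle atrophy protein atrogin-1, had 1.19 ± 0.151, 0.788 ± 0.161 and 2.5 ± 0.254 CPM.

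Of the 7 cytoskeletal and membrane organisation genes, FRY, a large microtubule-binding protein, was at 3.78, 3.83 and 4.37 CPM in control, 3.44, 1.85 and 2.56 CPM at 6 h and 16.2, 14.5 and 15.5 CPM at 24 h. Its 6 h libraries spread widely, while the 24 h libraries lay far above both other groups. PPFIBP2, a liprin that organises cell contacts, had 5.34, 6.24 and 5.48 CPM in control, 2.21, 1.85 and 2.18 CPM at 6 h and 11.7, 11.7 and 12.1 CPM at 24 h, with a 6 h ratio of 0.365. Its groups lay apart with little spread.

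In the other 5 genes of this role the 6 h mean was likewise the lowest of the 3, as the rule requires. CRACD, an inhibitor of actin capping protein, had 23.9 ± 0.544, 12.5 ± 1.26 and 42 ± 0.706 CPM. KIF21B, a kinesin, had 3.11 ± 0.0931, 1.99 ± 0.317 and 5.1 ± 0.301 CPM. EML5, a microtubule-associated protein, had 1.1 ± 0.241, 0.476 ± 0.0538 and 2.08 ± 0.133 CPM. The last pair act at the membrane. CLRN3, of the clarin family, had 17.5 ± 0.999, 8.42 ± 0.887 and 35.9 ± 0.918 CPM. CNTNAP2, a cell adhesion protein of the neurexin family, had 1.52 ± 0.14, 0.938 ± 0.409 and 3.57 ± 0.23 CPM, and 1 of its 6 h libraries lay inside the control range.

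Enzymes and RNA-binding proteins made up 5 members. CHST4, a sulfotransferase that makes L-selectin ligands, stood at 2.76, 3.07 and 4.17 CPM in control, 1.62, 2.5 and 2.09 CPM at 6 h and 13, 13 and 13.3 CPM at 24 h. Its 24 h libraries were very even. FMO5, a flavin monooxygenase, had 1.33 ± 0.257, 0.797 ± 0.243 and 2.45 ± 0.218 CPM. CAPN12, a calpain, had 4.21 ± 0.857, 2.6 ± 0.693 and 11 ± 0.729 CPM. It overlaps ACTN4 on the opposite strand, a gene at 1295 CPM in control. Both remaining genes bind RNA. ESRP1, an epithelial splicing regulator, had 1.33 ± 0.0286, 0.574 ± 0.0986 and 2.33 ± 0.317 CPM. ZC3H12B, of a ribonuclease family, had 1.87 ± 0.506, 0.915 ± 0.0407 and 3.15 ± 0.284 CPM.

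Protein-coding members outside these roles were 9. SOWAHA, an ankyrin repeat protein, was at 3.84, 4.03 and 3.78 CPM in control, 1.62, 2.22 and 1.68 CPM at 6 h and 10, 10.7 and 10.6 CPM at 24 h. WDR72, needed for enamel formation, had 1.5, 1.96 and 2.09 CPM in control, 1.69, 0.786 and 1.22 CPM at 6 h and 3.42, 3.93 and 3.31 CPM at 24 h. In WDR72 6 h library 1 lay inside the control range, and the 6 h ratio (0.666) was the one nearest to the limit. C6orf223 had 0.719, 0.806 and 1.04 CPM in control, 0.389, 0.416 and 0.726 CPM at 6 h and 1.81, 2.11 and 2.09 CPM at 24 h, at the level limit.

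AGFG2, a protein with FG repeats, had 44.6 ± 2.77, 25.8 ± 0.713 and 87.4 ± 1.6 CPM. ZSWIM5 had 15.9 ± 0.622, 9.37 ± 0.0211 and 26.3 ± 2.18 CPM. TMEM139 had 7.13 ± 0.622, 4.6 ± 0.0318 and 12 ± 0.571 CPM. In these 3 genes the 6 h libraries lay close together. IQCN had 2.07 ± 0.556, 0.678 ± 0.085 and 3.4 ± 0.649 CPM and a 6 h ratio of 0.327. KLHDC7A had 1.58 ± 0.415, 0.851 ± 0.207 and 2.76 ± 0.556 CPM and FAM117A 1.55 ± 0.259, 1.01 ± 0.235 and 2.46 ± 0.0454 CPM. FAM117A was not called lower at 6 h and left the set without control library 1, 2 or 3, without 6 h library 1 and under a replicate block.

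Noncoding RNAs and pseudogenes made up 9 members. ZDHHC8P1, a pseudogene of a palmitoyltransferase, was at 4.08, 2.77 and 3.39 CPM in control, 1.88, 2.08 and 2.38 CPM at 6 h and 12.5, 13.1 and 13.9 CPM at 24 h. MIR29B2CHG, the host transcript of miR-29 hairpins, had 1.38, 1.21 and 1.11 CPM in control, 0.973, 0.462 and 0.959 CPM at 6 h and 1.98, 2 and 2.23 CPM at 24 h. In MIR29B2CHG 6 h library 2 lay well under the other two. LINC01559, a long noncoding RNA, had 7.24 ± 0.54, 4.26 ± 0.248 and 12.1 ± 0.586 CPM. AC005077.4 had 0.958 ± 0.11, 0.55 ± 0.228 and 4.64 ± 0.463 CPM and AC009275.1 2.88 ± 1.19, 1.78 ± 0.215 and 6.07 ± 1.26 CPM. In AC009275.1 control library 1 lay inside the 6 h range. AC006460.1, AC011815.1 and AL109918.1 lay between 0.601 and 3.19 CPM in all group means.

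RMRP, the RNA of the ribonuclease MRP, was a member through 1 library. It stood at 1.86, 2.06 and 3.46 CPM in control, 2.99, 0.739 and 0.784 CPM at 6 h and 19.1, 2.19 and 1.63 CPM at 24 h, and only 24 h library 1 lay above the controls. Without it the log2 ratio at 24 h was -0.37 in place of 1.64. The same library stood apart for RPPH1, the RNA of ribonuclease P, with 7.46 CPM against at most 1.02 CPM elsewhere, and for 5.8S ribosomal RNA, with 28.4 CPM against at most 2.40 CPM. Whether this library's small RNA content entered the value of RMRP was not tested.

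Of the 65 genes 54 were called lower at 6 h and 64 were called higher at 24 h by edgeR's quasi-likelihood test, and 65 were called higher at 24 h than at 6 h. Over all tested genes these shares were 15.4%, 24.7% and 26.6%. The groups did not overlap for 58 at 6 h, for 64 at 24 h and for 58 at both, beside 20.8%, 29.9% and 5.36% of all tested genes, and nothing is read from these counts since the ratios chose the members. The exceptions at 6 h were AC009275.1, APBA1, C6orf223, CAPN12, CNTNAP2, RMRP and WDR72, and RMRP was the only one at 24 h. The genes not called lower at 6 h were AC009275.1, C6orf223, CNTNAP2, FAM117A, FBXO32, FMO5, KCNJ3, MIR29B2CHG, NR4A1, RMRP and WDR72.

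With each of the 9 libraries left out in turn, 34 of the 65 genes failed the rule at least once. Of these, 7 failed it in 4 fits or more, namely CFTR, FAM117A, MARCHF9, RMRP, C6orf223, FBXO32 and WDR72. C6orf223 failed it without any 1 of the control libraries, 6 h library 1 or 24 h library 2 or 3. FBXO32 and WDR72 failed it without control library 2 or 3 or 6 h library 2 or 3, and RMRP without control library 3, 6 h library 2 or 3 or 24 h library 1. Beside these 7, control library 1 decided AC011815.1, ADRA1D, CAPN12, GPER1, IQCN, MIR29B2CHG, NR4A1, RAB26, TLR1 and ZDHHC8P1. Control library 2 decided AC006460.1, AC009275.1, AL109918.1, FOXN3, SLC38A4, ZC3H12B and ZNF362, and control library 3 CHST4, FRY, MARCHF3 and TMEM139. At 6 h library 1 decided CAPN12, CHST4, CNTNAP2, FMO5, KCNJ3, KIF21B, MARCHF3 and ZNF362, library 2 FBXL20, FRY, MIR29B2CHG and TLR1, and library 3 AC005077.4 and SLC38A4. At 24 h library 1 decided NR4A1, library 2 AL109918.1 and library 3 ADRA1D, IQCN and MIR29B2CHG.

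C9orf72 (0.668 at 6 h) and SAMD13 (0.673) lay just outside the 6 h limit of the second direction, with WDR72 and MARCHF9 just inside. At 24 h CFTR and ADRA1D were just inside, and ANKS4B (1.48) and SMO (1.47) just outside. On level, C6orf223 (2.005 CPM) and MIR29B2CHG (2.07 CPM) were just inside, and AC087741.1 (1.95 CPM) and AC092647.5 (1.94 CPM) just outside.

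**Figure D4:**
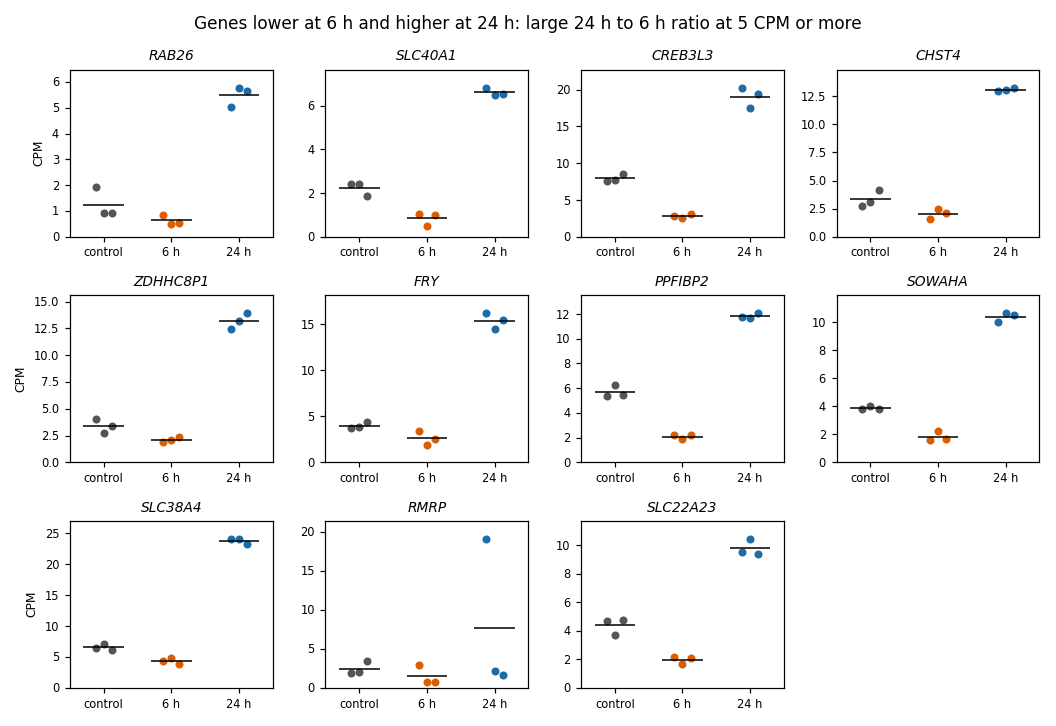
CPM (TMM-scaled) in each library for 11 of the 12 genes lower at 6 h and higher at 24 h with the largest ratio of 24 h to 6 h at 5 CPM or more, with 1 point per library, a bar at each group mean and linear axes from 0. In 10 panels the 24 h points lie above all others, and in the RMRP panel 1 of 3 does.

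**Figure D5:**
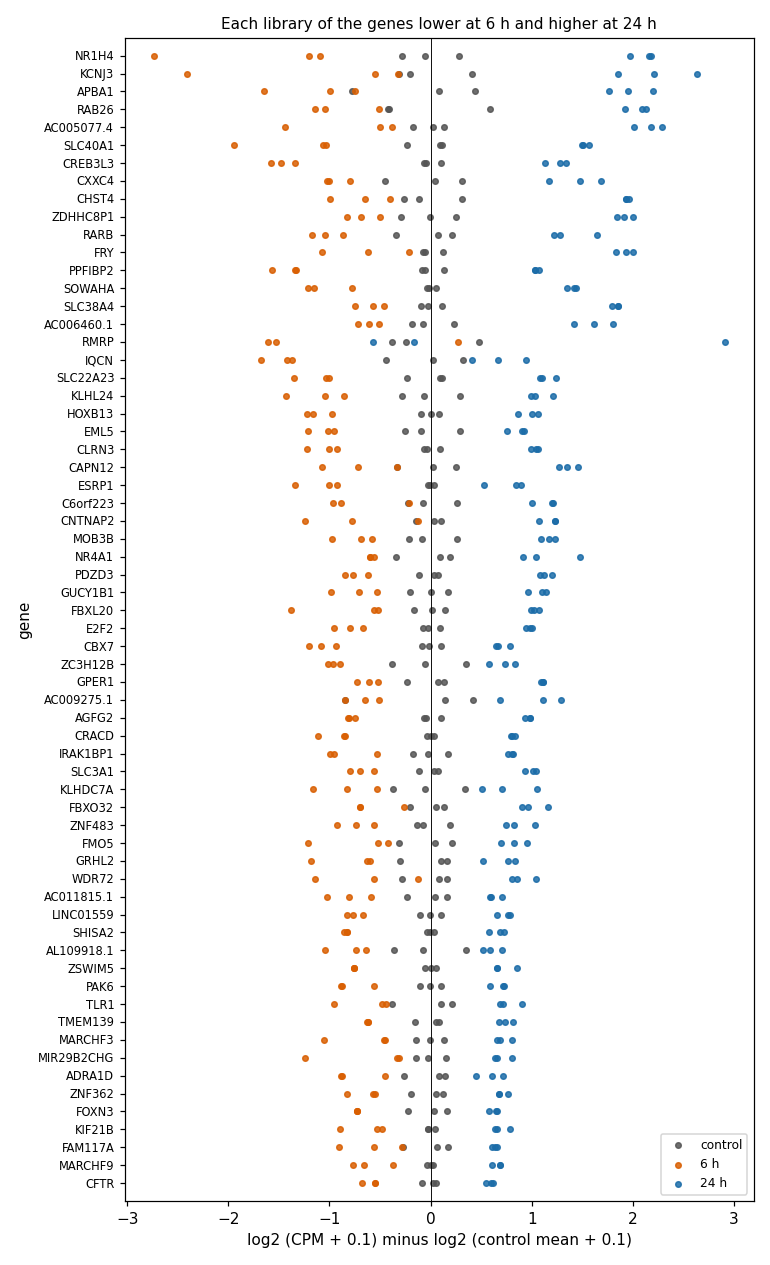
The plot shows 64 of the genes lower at 6 h and higher at 24 h, sorted by the ratio of 24 h to 6 h, with each library as log2 of CPM plus 0.1 minus log2 of the control mean plus 0.1 (control grey, 6 h orange, 24 h blue). The 6 h points lie left and the 24 h points right of 0 for nearly all genes, except in RMRP, where 2 of the 3 blue points are left of 0.

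RefSeq promoters, 250 bases before to 50 after the start on GRCh38.p14, were matched for 12 of the 15 and 42 of the 65 genes. The 2-unit heat shock element was found on either strand in 5 of the 12, ANKRD33B, HSPA1A, HSPA1B, HSPA6 and PLEKHN1, and in 9 of the 42, beside 10.4% of 15421 promoters of tested genes. In PLEKHN1 the match lay from -83 to -76 and in ANKRD33B from -124 to -117. This motif was searched after the members were known. An element of 3 such units in a row was found in HSPA6, from -74 to -62, and in 0.357% of the promoters of tested genes.

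The other motifs were each found in 0 to 3 promoters of a direction. The interferon-stimulated response element core (GAAANNGAA) was in 1 of the 12, that of BAG1, and in FAM117A and SLC38A4 of the 42, beside 6.71% of tested genes' promoters. The GAS motif (TTCNNNGAA), bound by STAT dimers, was in 0 of the 12 and in FMO5, GPER1 and RARB, beside 6.12%. The E-box (CACGTG) was in PI4K2B and SPOCD1 and in PAK6 and PPFIBP2, beside 9.23%, and the AP-1 motif (TGANTCA) in HSPA6 and TUBB3 and in IQCN and KLHL24, beside 5.25%. The CRE core (TGACGTCA) was found in FBXL20 (2.72% of tested genes' promoters) and the sterol element core (TCACNCCAC) in CHST4 (1.04%). The letters TATAAA, sought on either strand and at any position, were in HSPA1A, HSPA1B, CLRN3, FMO5 and SLC38A4 (6.39%). In FMO5 they lay on the other strand (TTTATA, -30 to -25). In SLC38A4 they began at -171, and in CLRN3 at -148 and, on the other strand, at 34, away from the place seen in HSPA1A and HSPA1B. Motifs can overlap, as the GAS motif and the heat shock element of RARB do.

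By position on the annotation, 6 of the 15 and 24 of the 65 genes overlap another tested gene. Where the counting ignored strand, reads in a stretch shared by opposite-strand genes could not be told apart. For partners on the same strand, strand could not separate such reads. THSD1 has a same-strand partner, VPS36 (ratios 1.16 and 0.868). RPS6KA5 overlaps DGLUCY (ratios 1.58 and 1.57) and RNF24 overlaps PANK2 (1.39 and 1.19), both on the opposite strand, and these partners did not reach the lower limit at 24 h.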

How the data were processed

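Total RNA of SUIT2 cells was sequenced in 3 control libraries, 3 at 6 h and 3 at 24 h of interferon beta. The authors used STAR 2.7.8a, Partek and the hg38 build, per the submitters' processing notes. The sources used here do not give the annotation release, nor how reads were counted or whether strand was used. A table deposited by the authors holds estimated counts per gene for 59609 genes, which were rounded to whole numbers here because the fixed design assumed counts. Their second deposited table holds TMM-normalized signal, to which 0.0001 had been added per the files' own naming, and it served as an alternative only.

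Genes were filtered with edgeR 4.0.16 (limma 3.58.1, R 4.3.3; minimum count 10, minimum total 15), which left 16964, and levels are CPM with TMM factors. Calls are from edgeR's quasi-likelihood test in 1 model over 9 libraries, with 6 residual degrees of freedom, a biological coefficient of variation of 0.0392 and a Benjamini-Hochberg adjusted p under 0.05 over all genes tested. The spread behind these p-values is that between libraries and may be technical. No replicate pair agreed within sampling noise (mean chi-square 1.6 to 5.7 a gene). This cannot show whether the libraries came from separate cultures, so n counts libraries, 3 per group. Standard errors are log2 fold changes over the root of the F statistic, without sign.

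Members and gene lists were chosen with earlier results of these data known. Members carry no p-value because both contrasts chose them. Of the 15 genes of the first direction 14 are named, and 64 of the 65 are shown, since some genes are not reported here. Of the 65, library values are given for 11 of the 12 with the largest ratio of 24 h to 6 h at 5 CPM or more, those on a gene list and those next to a limit, with further members named for their roles after their values were seen. From each list with a member up to 3 other genes, those with the highest level, are named. The HSPA and BAG families were added to the named genes. Coordinates are the deposited ones on hg38, counted from 1. Of symbols shared with the reference annotation, 81.6% had the same start and 81.5% an end 1 base further. Promoters are RefSeq's for GRCh38.p14. Coding sequences are the longest reading frames among each gene's GENCODE transcripts. Identities came from pairwise alignment with Biopython 1.88. The scripts were tested on simulated data. Alternatives were DESeq2 1.42.0, other scalings, filters and limits, a replicate block and each library left out. Python 3.11.15, pandas 2.3.3, numpy 2.4.6 and matplotlib 3.10.9 were used.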

Additional observations from a re-analysis of the deposited data

Results flagged for a closer look

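Genes named beside the members that are no members themselves were set apart where edgeR's quasi-likelihood test called them in opposite directions at the 2 times and also between the times (adjusted p under 0.05, 3 libraries per group). The HSPA and BAG families had been added to the named genes, so the number of chaperone genes here follows from which genes were named. The log2 fold change of 24 h against 6 h was -1.08 for BAG3, -1.04 for DNAJB1, -0.973 for HSPA8, -0.464 for HSPH1, -0.38 for HSP90AA1 and -0.309 for BAG6. HSPA12A, of the HSPA family, went the other way with 0.824. Among list genes, MYC had -1.16, the cyclin gene CCND1 -1.02, the zinc finger factor KLF6 -0.812 and the fatty acid synthase gene FASN 0.266. For BAG6 the 6 h call also missed the threshold without control library 2 (0.10) or 6 h library 2 (0.08).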

How the results depend on the processing

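The count of genes higher then lower was 15 and ranged from 15 to 20 with 1 library left out at a time. Other settings gave 24 at a level of 1 CPM, 2 at ratios of 2 and 0.5 (HSPA1A and HSPA6) and 71 at a ratio of 1.3 and its inverse. The count of genes lower then higher was 65 and ranged from 57 to 70 with 1 library left out. It was 133 with library sizes alone and 132 in the deposited normalized table rescaled to equal totals. Rescaling takes the TMM factors out of that table again, so these 2 settings are not separate alternatives. The count was 110 at 1 CPM, 37 at 5 CPM, 13 at ratios of 2 and 0.5 and 224 at 1.3. In all 9 fits with 1 library left out, 13 of the 15 and 31 of the 65 genes met the rule. In the normalized table as deposited, an alternative added after the data were seen, 7 of the 15 and 34 of the 65 genes met it. In all, 12 and 65 genes met the rule there. With library sizes alone PI4K2B, SPOCD1, THSD1 and TUBB3 did not meet it, and all 65 others did.

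Genes called with 1 library left out numbered 4722 to 5489 at 6 h, 7497 to 8981 at 24 h and 8847 to 9739 between the times, against 5576, 8475 and 9704 with all. DESeq2 called 4500, 7084 and 8210. The share of calls that were higher was 53.2% at 6 h, 49.5% at 24 h and 46.6% between the times, and 21.2%, 64.1% and 76.9% with library sizes alone, a scaling that moves the median of all genes to -0.145 at 6 h and 0.082 at 24 h. It also turned the 6 h log2 fold changes of BAG6, HSPA4, HSPA9 and SCD to -0.0375, -0.0976, -0.0906 and -0.0805. RMRP's 24 h log2 ratio ranged from -0.366 (without 24 h library 1) to 2.12 (without 24 h library 3). The cause was not tested. Replicate numbers are shared between groups, but same-numbered libraries did not deviate together (correlations -0.382 to 0.129, against -0.14 to 0.313 for other pairs). A replicate block in the model gave 5149, 8133 and 9393 calls and 16 and 64 genes by the rule. Depth limits the values of low genes, and 28 genes of the second direction stayed under 5 CPM in their highest group.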
